A study of Homo sapiens with 36 samples.

Results

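H3255 and H1975 are established lung adenocarcinoma cell lines that both carry the L858R mutation in the kinase domain of the epidermal growth factor receptor (EGFR). H3255 is labelled EGFR L858R and H1975 is labelled EGFR L858R/T790M. T790M is the gatekeeper mutation that lowers the sensitivity of the receptor to early EGFR kinase inhibitors. The comparison asked how far the response to MinE07, an RNA aptamer that binds the outer part of EGFR, differed between these 2 lines. It was the change from the control aptamer C36 (an extended version) to MinE07 in H3255 minus the same change in H1975, for every gene, on the scale log2(FPKM + 0.5), where FPKM are fragments per kilobase of transcript, scaled to the size of the library. It used 12 of the 36 libraries of the series: 3 per line with MinE07 and 3 per line with C36. A further 6 libraries of the lines treated with vehicle (DPBS with magnesium) served as a second control. All cells had 3 µM aptamer, or vehicle, for 24 h in medium with 1% serum, and each group came from 3 independent experiments. Of the 66366 genes listed, 12182 had a mean of at least 1 FPKM in each line and were tested, 1251 reached it in H3255 alone, 2014 in H1975 alone, and 50919 in neither. There is 1 line of each genotype and the lines come from different patients, so the genotype and every other difference between the lines cannot be told apart.

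EGFR is a receptor tyrosine kinase that signals through the RAS-RAF-MEK-ERK and the PI3K-AKT pathways. ERK activity drives transcription of immediate early genes, of growth factor ligands and of its own inhibitors, so these mRNAs fall when the pathway is blocked. AKT and mTOR signalling hold FOXO transcription factors out of the nucleus, and they favour glucose uptake and glycolysis, in part through hypoxia-inducible factor (HIF).

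The 2 lines differed in EGFR before any response was considered. With C36 EGFR mRNA stood at 436, 418 and 414 FPKM in H3255 and at 25.1, 27.2 and 24.9 in H1975. With MinE07 it stood at 336, 347 and 341 FPKM in H3255 and at 23.7, 23.9 and 23.9 in H1975. The MinE07 libraries were below all C36 libraries in both lines, and the fall was larger in H3255 (change −0.31 against −0.11; difference −0.20 ± 0.05, standard error; adjusted p = 0.0179). With vehicle as the control the difference was −0.17 with an adjusted p of 0.058. Unless stated otherwise, values with ± in brackets are differences between the lines on the log2 scale with their standard error, and a gene is called at an adjusted p (limma, Benjamini-Hochberg over all genes tested, two-sided) under 0.05. Both lines carried epithelial markers (median EPCAM 212 FPKM in H3255 and 94.5 in H1975; KRT8 690 and 606), and PTPRC, CD3E, HBB and DCN lay between 0 and 0.0626 FPKM in all 12 libraries. The FPKM of a library summed to 427389 to 449811 (H3255) or 397132 to 434996 (H1975). Read counts are not in the files. Steps in the low FPKM values gave relative depths of 0.590 to 1.15 in H3255 and 0.802 to 1.32 in H1975. These include the vehicle libraries and are against the median of the 36 libraries. The depth of 0.590 was that of vehicle replicate 2 of H3255.

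The response differed between the lines for 1653 of the 12182 genes (13.6%). The change was more positive in H3255 for 724 genes (5.94%) and more negative for 929 (7.63%). Most of these differences were small: their median size was 0.28, 199 reached 0.5 in either direction, and 5 positive and 14 negative ones reached 1. Within the lines, MinE07 changed 4863 genes in H3255 (39.9%; 17.3% higher, 22.6% lower) and 2759 in H1975 (22.6%; 9.54% higher, 13.1% lower), and the median absolute change over all genes was 0.108 against 0.0805. Higher calls were 43.4% of calls in H3255 and 42.1% in H1975. They were 49.5% and 49.6% after rescaling the libraries of each line by their medians of ratios. With vehicle in place of C36, 1632 of the 1653 genes (98.7%) kept the sign of their difference and 1130 were called again. That control shares the MinE07 libraries with the first and called 1774 genes in all (14.6%), 8.2% higher and 6.36% lower, of which 56.3% were higher, or 46.5% after rescaling the libraries of each line by their medians of ratios. Against vehicle, MinE07 changed 40.9% of genes in H3255 and 26.4% in H1975. C36 itself changed 2.02% of genes against vehicle in H3255 (1.36% higher, 0.657% lower) and 1.63% in H1975 (0.69% higher, 0.936% lower).

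Of the 1653 genes, 956 changed in H3255 without a call in H1975 (428 up, 528 down), and 264 in H1975 without a call in H3255, 147 of them up and the others down. A further 93 rose in both lines, 81 of them more in H3255, and 132 fell in both, 114 of them more in H3255. Another 163 moved in opposite directions, 60 of them up in H3255 and 103 down there, and 45 were called in neither line. The lines also shared much of their response. The 1809 genes called in both were 37.2% of those called in H3255 and 65.6% of those called in H1975, and 1646 of them (91.0%) had the same sign. For 1129 of these the 95% interval of the difference lay within 0.25 of 0. Across the 12182 genes, which are not independent replicates, the changes in the lines had a Pearson r of 0.20 and a Spearman rho of 0.47.

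**Figure D1:**
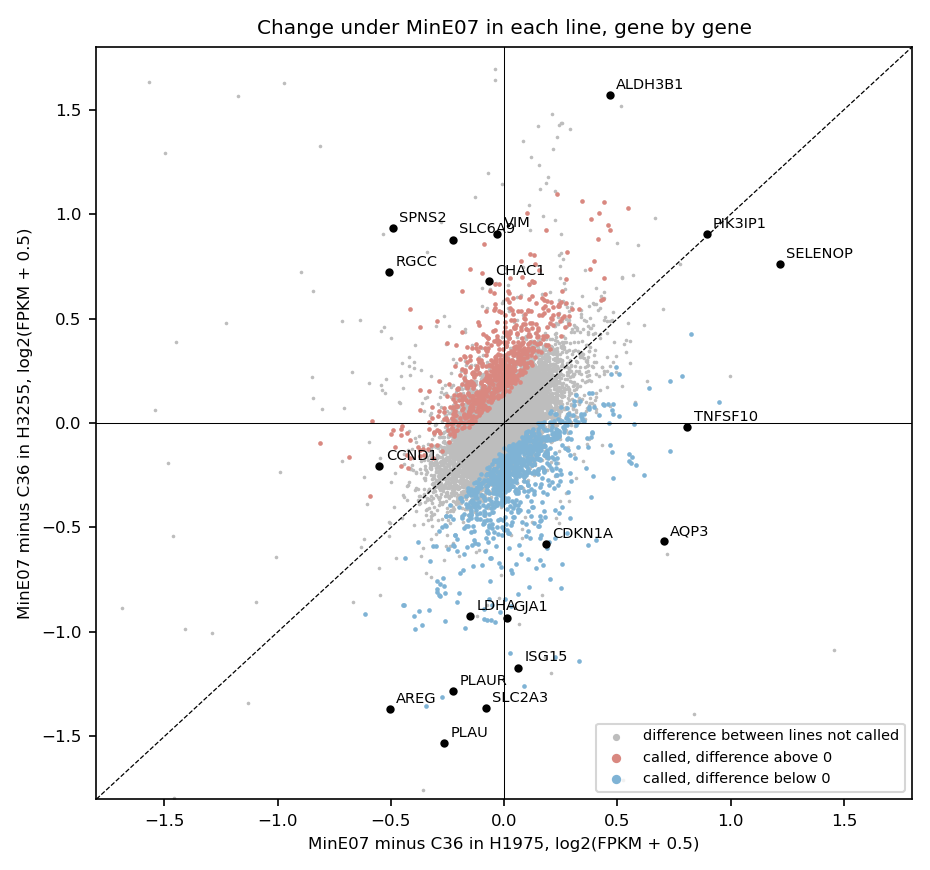
Change from C36 to MinE07 in H1975 (x axis) and H3255 (y axis), in log2(FPKM + 0.5), for each gene tested. Grey points are genes whose difference between the lines was not called, red and blue points are called genes with a difference above and below 0, black points are named genes, and the dashed line marks equal change. PLAU and SLC2A3 lie far below 0 on the H3255 axis. On the H1975 axis SLC2A3 lies near 0 and PLAU at −0.26. PIK3IP1 lies on the dashed line. 47 genes fall outside the axes, 3 of them called.

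Genes of glucose uptake and glycolysis fell further in H3255 than in H1975. SLC2A3, the high-affinity glucose transporter GLUT3, had 2.43, 2.53 and 2.97 FPKM with MinE07 and 7.77, 7.47 and 7.50 with C36 in H3255. In H1975 it had 11.1, 11.1 and 10.7 FPKM with MinE07 and 11.8, 11.5 and 11.5 with C36. The H3255 groups were far apart and the H1975 groups close together, with a difference of −1.29 ± 0.07 (adjusted p = 6.07e-07). LDHA, which turns pyruvate into lactate, had 75.5, 74.2 and 75.2 FPKM with MinE07 against 141, 138 and 150 with C36 in H3255. H1975 had 449, 447 and 449 FPKM against 515, 511 and 468. It therefore fell in both lines, by 0.92 and 0.15 on the log2 scale, and the difference was −0.78 ± 0.06 (adjusted p = 3.09e-06). A further copy of LDHA is listed separately in the files, and with it added the difference was −0.80.

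Of the 22 glycolysis and glucose transport genes tested, of 23 listed, 14 were called with a larger fall in H3255 and none in the other direction. Their median difference was −0.26, beside 0.00 for all genes, of which 7.63% were called lower and 5.94% higher. In H3255 19 of the 22 fell, where 22.6% of all genes did, and in H1975 10 did, where 13.1% of all genes did, with median changes of −0.41 and −0.13. The 14 were the transporters SLC2A3 and SLC2A1 (−0.33), the first kinase HK2 (−0.20), GPI (−0.27), PFKP (−0.34), the aldolases ALDOA (−0.47) and ALDOC (−0.29), TPI1 (−0.25), GAPDH (−0.30), PGK1 (−0.45), PGAM1 (−0.35), ENO1 (−0.26), PKM (−0.46) and LDHA. The differences of the lactate exporter SLC16A3 (0.06), of LDHB (0.06) and of the regulator PFKFB3 (0.06) were not called, and SLC16A3 fell in both lines (−0.23 and −0.30). With vehicle as the control 13 genes of the list were called lower and none higher, with a median of −0.30. Over all genes 6.36% were called lower and 8.2% higher with vehicle. GPI (−0.18, adjusted p = 0.156) and ALDOC (−0.17, adjusted p = 0.0923) were then not called.

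HIF target genes also fell further in H3255. BHLHE40, a transcriptional repressor, had 18.8, 19.2 and 19.5 FPKM with MinE07 against 34.9, 37.4 and 35.7 with C36 in H3255. The H1975 values were 51.3, 53.9 and 50.2 FPKM against 54.0, 56.5 and 55.1. The groups did not overlap in either line, and the gap was far wider in H3255 (changes −0.89 and −0.09; difference −0.80 ± 0.05; adjusted p = 1.22e-06). EGLN3, a prolyl hydroxylase that acts on HIF, differed by −0.88 ± 0.08, PDK1, the kinase that restrains pyruvate dehydrogenase, by −0.50 ± 0.08, and the angiogenic factor VEGFA by −0.46 ± 0.05 (−0.30 with vehicle). Of 15 targets tested, of 19 listed, 9 were called with a larger fall in H3255 and 1, DDIT4, in the other direction (0.47). Their median difference was −0.35, and over all genes 7.63% were called lower and 5.94% higher. DDIT4 is also a target of ATF4 and was listed with those genes too. The call of ANKRD37 (−0.85, adjusted p = 0.0299) was lost when any of 6 single libraries was left out.

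The core of the HIF binding element, ACGTG on either strand, lay in the listed promoters (250 bases before to 50 after a start) of 7 of 12 HIF targets and 13 of 21 glycolysis genes for which RefSeq promoters (GRCh38.p14) were at hand, against 24.87% of all 27305 genes. The stretches of BHLHE40 and PDK1 are shown because these genes fell with MinE07 in H3255 and hold the core more than once; capitals mark the core or its reverse complement, the strand is that of the gene, and a match of letters does not show that a factor binds.
BHLHE40 (chr3:4979187-4979304, plus strand): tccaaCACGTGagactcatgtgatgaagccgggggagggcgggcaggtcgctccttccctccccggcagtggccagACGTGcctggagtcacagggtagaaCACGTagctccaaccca
PDK1 (chr2:172556061-172556089, plus strand): cctgctgcccgcCACGTccctCACGTacc

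Genes of serine synthesis, amino acid uptake and tRNA charging moved the other way. Most of them are targets of ATF4, the transcription factor that is translated when amino acids run short or the integrated stress response is on. ASNS, asparagine synthetase, had 56.2, 62.5 and 59.8 FPKM with MinE07 against 39.3, 40.2 and 40.1 with C36 in H3255. Values in H1975 were 18.2, 19.4 and 18.1 FPKM against 18.6, 20 and 18.6. The H3255 groups did not overlap and the H1975 groups did (0.61 ± 0.06; adjusted p = 3.10e-05). CHAC1, which degrades glutathione, had 10.1, 11.8 and 11.5 FPKM against 6.17, 6.54 and 7.52 in H3255, and 1.73, 2.42 and 2.04 against 2.11, 2.39 and 2.04 in H1975. It rose in H3255 without overlap and its H1975 groups overlapped (0.75 ± 0.14; adjusted p = 0.00467).

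Of the 24 ATF4 and amino acid genes tested, of 26 listed, 14 were called higher and 1 lower for H3255 relative to H1975, with a median difference of 0.19. Over all genes 5.94% were called higher and 7.63% lower. In H3255 14 of the list rose and 5 fell, where 17.3% and 22.6% of all genes did. In H1975 5 fell and none rose, where 13.1% and 9.54% of all genes did. The 14 comprised the serine pathway enzymes PHGDH (0.43), PSAT1 (0.59) and PSPH (0.17), the folate enzyme MTHFD2 (0.18), the glutamine transporter SLC1A5 (0.46), the tRNA synthetases CARS1 (0.60), AARS1 (0.30), GARS1 (0.27), SARS1 (0.23) and WARS1 (0.15), ATF4 itself (0.36), DDIT4, ASNS and CHAC1. A further copy of CARS1 is listed separately, and with it added the difference was 0.52. PSAT1 rose in H3255 by 0.37 and fell in H1975 by 0.21 on the log2 scale, and SLC1A5 rose by 0.29 and fell by 0.16. The stress genes DDIT3 and TRIB3 fell in H3255 (−0.15 and −0.28), and their differences of −0.18 and −0.15 were not called. SLC7A11, the cystine importer, was the 1 gene called lower (−0.55 ± 0.07, and −0.30 with vehicle); it had 2.73, 2.79 and 2.54 FPKM with MinE07 against 4.35, 3.94 and 3.97 with C36 in H3255. C36 itself stood above vehicle there for SLC7A11 (0.28, adjusted p = 0.00796). SLC6A9, a glycine transporter outside the list, had 6.71, 7.95 and 7.42 FPKM against 3.95, 3.74 and 3.61 in H3255, and 4.56, 4.44 and 4.42 against 5.38, 5.30 and 5.28 in H1975. It rose in the first line and fell in the second (1.10 ± 0.07; adjusted p = 1.48e-06). With vehicle as the control 16 genes of the list were called higher and 1 lower, against 8.2% and 6.36% of all genes. The differences of PSPH (0.28), MTHFD2 (0.28) and WARS1 (0.29) were then larger.

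The letters TGATGNAAN, an ATF4 element on either strand, lay in the promoters of 7 of 21 genes of the list with promoters at hand (33.3%), against 4.45% of all genes. Among the 13 called higher with a promoter 6 held it, and 1 of the 8 not called. Other elements were searched in the same way. The cyclic AMP response element (TGACGTCA) lay in 1 of 10 ERK feedback and 1 of 12 immediate early promoters (2.25% of all genes), and the sterol regulatory element (TCACNCCAC) in 1 of 20 of the sterol and fatty acid list (1.39%). The cell cycle homology region (TTTGAA) lay in 21 of 29 mitosis promoters (72.4%, against 18.17%), a list whose share of called differences was near that of all genes. CHAC1 and SLC1A5 are shown because they rose in H3255; the capitals are the element, read on the opposite strand in CHAC1.
CHAC1 (chr15:40953249-40953281, plus strand): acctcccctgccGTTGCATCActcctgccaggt
SLC1A5 (chr19:46784891-46784923, minus strand): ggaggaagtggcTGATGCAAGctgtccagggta

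**Figure D2:**
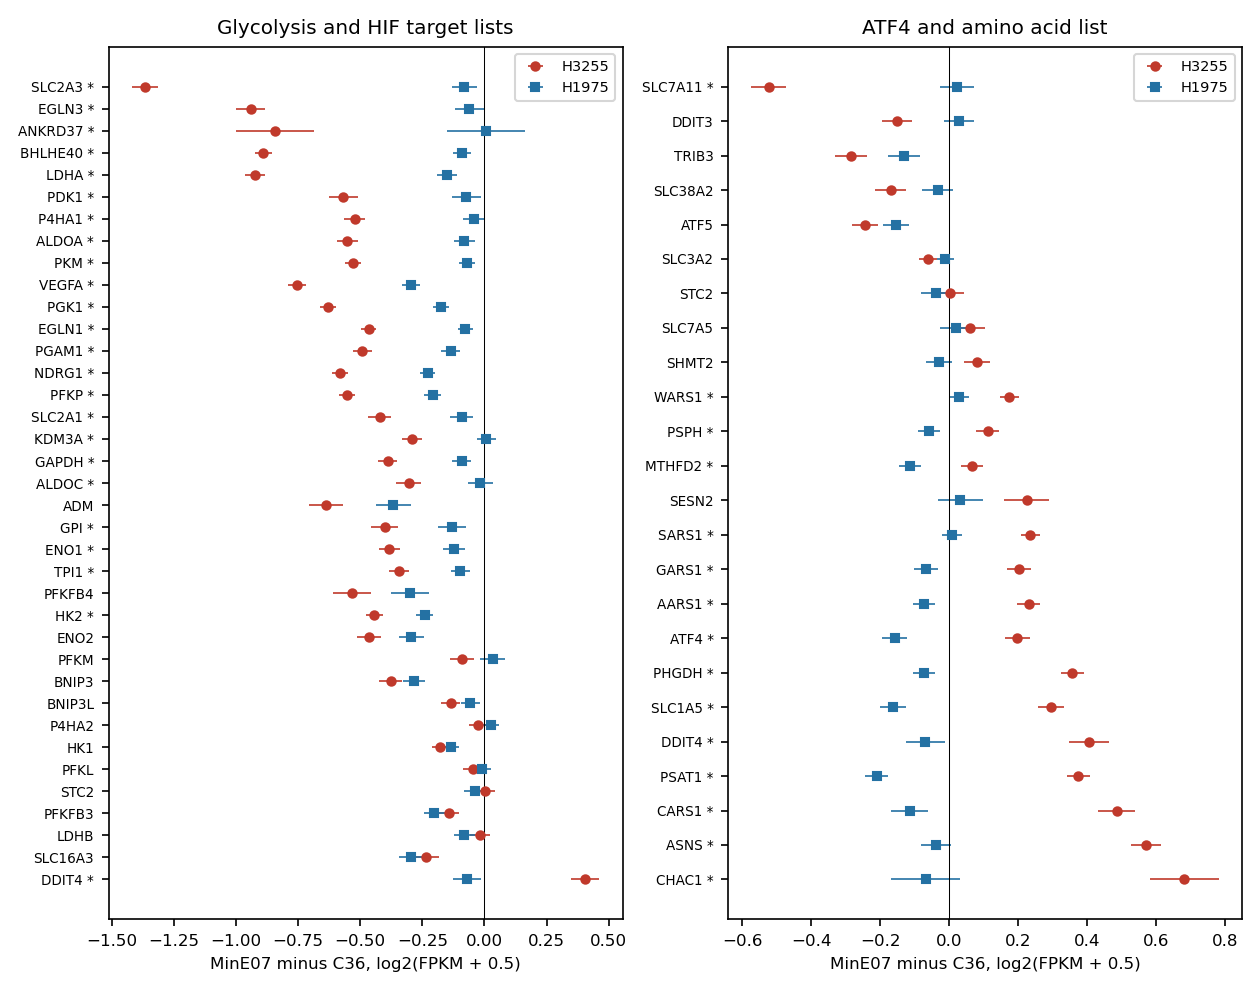
Change from C36 to MinE07 in H3255 (red circles) and H1975 (blue squares), in log2(FPKM + 0.5) with standard errors, for each gene tested of the glycolysis and HIF lists (left) and of the ATF4 and amino acid list (right). Stars mark genes whose difference between the lines was called. On the left the circles of starred genes lie to the left of their squares except for DDIT4; on the right those of 14 starred genes lie to the right of theirs, and that of SLC7A11 to the left.

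Direct readouts of ERK output fell in both lines, and the size of the gap depended on the gene. DUSP6, a phosphatase that switches off ERK, had 157, 161 and 164 FPKM with MinE07 against 254, 259 and 267 with C36 in H3255. H1975 cells had 4.43, 4.36 and 4.51 FPKM against 6.09, 7.26 and 6.94. Its level differed widely between the lines, yet its changes of −0.69 and −0.55 did not differ beyond the test (−0.14, 95% interval −0.29 to 0.01; adjusted p = 0.216). SPRY4, a Sprouty inhibitor of RAS signalling, changed by −0.86 and −0.67, and the difference of −0.19 was not called (adjusted p = 0.0644); it was called under 4 of the alternatives. With vehicle as the control both genes were called (DUSP6 −0.31, adjusted p = 0.00382; SPRY4 −0.26, adjusted p = 0.00805). DUSP6 with C36 stood above vehicle in H1975 (0.29, adjusted p = 0.00507).

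Other members of the feedback list split. TRIB1, DUSP5, IER3, SPRED2, PHLDA2, SPSB1, PHLDA1 and EPHA2 fell more in H3255 (differences −0.73 to −0.33). DUSP5 passed the minimum in H3255 through C36, with a mean of 0.68 FPKM with MinE07 there. Further copies of IER3 are listed separately, and with them added its difference was −0.52. ETV4 (0.25) and ETV5 (0.25), both ETS transcription factors, fell more in H1975, and the phosphatase DUSP7 (0.33) fell there and not by the test in H3255. ETV4 was not called with vehicle (0.11, adjusted p = 0.319). Together 11 of 18 tested, of 20 listed, were called, 8 lower and 3 higher, with a median difference of −0.18. Over all genes 7.63% were called lower and 5.94% higher. Within each line 15 of the 18 fell, where 22.6% of all genes did in H3255 and 13.1% in H1975. TRIB1, a pseudokinase, had 10.2, 10.9 and 11.0 FPKM against 18.4, 18.1 and 16.9 in H3255, and 8.43, 8.76 and 8.72 against 8.66, 8.51 and 8.16 in H1975. It fell in H3255 and its H1975 groups overlapped (−0.73 ± 0.06).

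The EGFR ligands amphiregulin and epiregulin fell more in H3255. AREG had 3.69, 3.45 and 3.22 FPKM with MinE07 against 9.17, 10.1 and 9.81 with C36 in H3255. In H1975 it had 5.64, 5.23 and 5.52 FPKM against 7.94, 7.76 and 8.18. It fell in both lines without overlap, by 1.37 and 0.51 on the log2 scale (−0.86 ± 0.07; adjusted p = 7.68e-06). EREG had 0.438, 0.460 and 0.356 FPKM against 1.66, 1.82 and 1.86 in H3255, and 7.32, 7.23 and 7.72 against 9.46, 9.10 and 8.72 in H1975. Its difference was −1.04 ± 0.08, on a scale that understates the change of a gene this low in H3255. It lay below 1 FPKM there with MinE07 and passed the minimum through C36. The differences of TGFA (0.10) and BTC (−0.16) were not called. The feedback inhibitor ERRFI1 fell more in H3255 (−0.41 ± 0.05, and −0.21 with vehicle), and LRIG1, which promotes receptor turnover, rose there and fell in H1975 (0.37). ERBB3 rose in both (0.20 and 0.24; difference −0.04, 95% interval −0.14 to 0.05). ERBB2 rose in both, with a difference of 0.12 that was not called (adjusted p = 0.0863). Of the list of ERBB receptors, ligands and inhibitors 5 of 12 tested were called lower and 1 higher, against 7.63% and 5.94% of all genes.

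Among 16 immediate early genes tested, of 20 listed, 9 were called, all with a more negative change in H3255. Over all genes 7.63% were called in that direction. The median difference of the list was −0.27. JUNB had 63.8, 72.3 and 72.2 FPKM with MinE07 against 84.5, 98.4 and 92.4 with C36 in H3255, and 77.3, 76.3 and 72.2 against 68.2, 66.3 and 71.9 in H1975. It fell in H3255, and its H1975 change of 0.13 was not called (−0.53 ± 0.09). EGR1 fell in both (−0.92 and −0.61), and its called difference of −0.30 (adjusted p = 0.0355) was lost when any of 9 single libraries was left out; with vehicle the difference was −0.46. FOSL1 (−0.27) and MYC (0.20) were not called. LIF, a cytokine, was 0.559, 0.570 and 0.644 FPKM with MinE07 and 1.45, 1.74 and 1.41 with C36 in H3255, and 10.2, 9.22 and 9.54 against 11.7, 12.7 and 12.4 in H1975 (−0.56 ± 0.09). In H3255 it passed the minimum through C36.

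Genes of the urokinase system fell further in H3255. PLAU, the plasminogen activator urokinase, had 2.47, 2.85 and 3.02 FPKM with MinE07 against 9.70, 8.91 and 8.36 with C36 in H3255. H1975 had 80.2, 77.0 and 77.1 FPKM against 94.5, 93.2 and 94.1. It fell in both lines without overlap, which the naming rule required in H3255, by 1.53 and 0.26 (−1.27 ± 0.08, adjusted p = 1.48e-06). Its receptor PLAUR had 18.6, 19.7 and 20.3 FPKM against 50.4, 47.8 and 46.9 in H3255, and 26.0, 25.7 and 26.8 against 31.1, 30.3 and 30.6 in H1975 (−1.06 ± 0.05). The tissue-type activator PLAT differed by −0.82 ± 0.09 and the protease inhibitor TIMP2 by −0.27, while TIMP1 (0.12) and MMP14 (0.20) were not called. So 4 of 6 tested, of 18 listed, were lower, against 7.63% of all genes. The collagen receptor subunit ITGA2 (−1.01 ± 0.06), the gap junction protein GJA1 (−0.94 ± 0.04) and SCEL, sciellin (−0.95 ± 0.06), were among the 10 largest negative differences that the naming rule took. GJA1 had 37.5, 40.6 and 39.9 FPKM against 74.8, 75 and 76.5 in H3255, and 44.6, 43.8 and 44.8 against 44.2, 43.9 and 44.0 in H1975. F3, which starts coagulation, fell in both and more in H3255 (−0.61 ± 0.08).

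**Figure D3:**
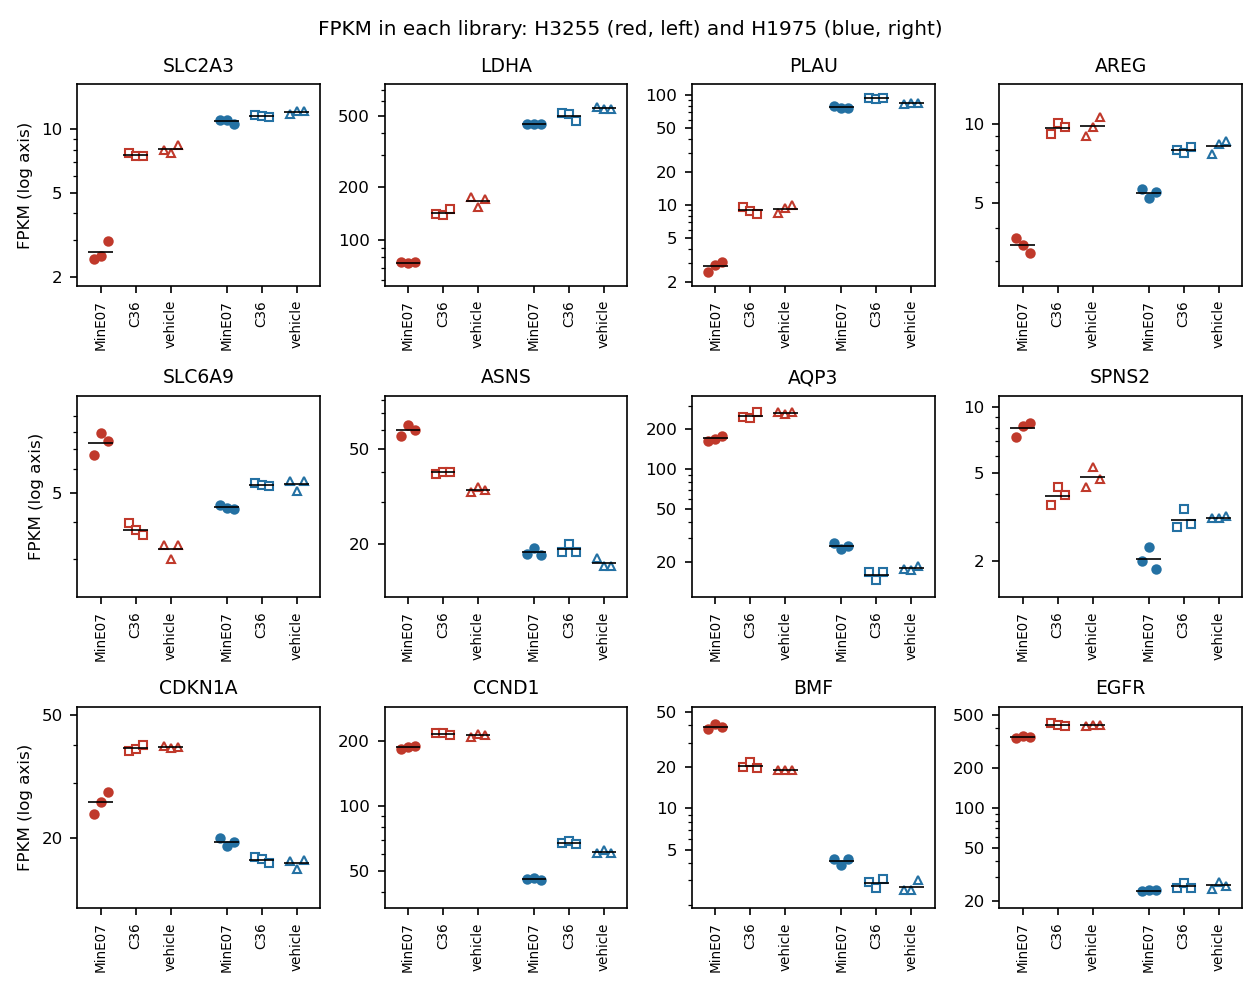
FPKM on a log axis in each library of H3255 (red, left) and H1975 (blue, right) with MinE07 (filled circles), C36 (open squares) or vehicle (open triangles) for 12 genes; the black line is the mean of 3. SLC2A3, LDHA, PLAU and AREG fell further in H3255, SLC6A9 and ASNS rose there, AQP3, SPNS2 and CDKN1A moved in opposite directions, and CCND1 fell further in H1975.

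The 10 largest positive differences that the naming rule took belonged to genes that rose in H3255. ALDH3B1, an aldehyde dehydrogenase, had 10.3, 11.1 and 10.9 FPKM with MinE07 against 3.30, 3.19 and 3.40 with C36 in H3255. The H1975 values were 87.3, 91.6 and 86.2 FPKM against 64.7, 63.1 and 63.5. It rose in both lines, by 1.57 and 0.47 (1.10 ± 0.05; adjusted p = 9.08e-08). VIM, the intermediate filament protein of mesenchymal cells, had 9.51, 11.1 and 10.1 FPKM against 5.16, 5.30 and 5.21 in H3255, and 622, 642 and 632 against 660, 639 and 639 in H1975. The rise in H3255 (0.94 ± 0.06) left it far below its level in H1975, where the groups overlapped. LFNG, which modifies Notch receptors (0.91 ± 0.07), the sialyltransferase ST6GALNAC2 (0.87 ± 0.09), TRIM3 (0.95 ± 0.08) and the transcription factor NFIX (0.89 ± 0.06) also rose in H3255. Of the 16 epithelial and mesenchymal state genes tested, of 25 listed, 2 were called higher and 4 lower, against 5.94% and 7.63% of all genes.

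Some genes moved in opposite directions. AQP3, a water and glycerol channel, had 163, 170 and 179 FPKM with MinE07 against 249, 242 and 269 with C36 in H3255. Values in H1975 were 27.9, 24.8 and 26.4 FPKM against 16.7, 14.6 and 16.6. It fell in H3255 and rose in H1975 (changes −0.57 and 0.70, difference −1.27 ± 0.09, adjusted p = 2.52e-06). Its groups did not overlap in either line, which the naming rule required in H1975, the line with the larger change. SPNS2, which exports sphingosine-1-phosphate, had 7.28, 8.22 and 8.48 FPKM against 3.58, 4.31 and 3.96 in H3255, and 1.99, 2.31 and 1.83 against 2.83, 3.44 and 2.94 in H1975 (1.42 ± 0.12; adjusted p = 1.34e-05). RGCC, a cell cycle regulator (1.23 ± 0.17), and TEAD4, a partner of YAP (0.83 ± 0.07), likewise rose in H3255 and fell in H1975. DYSF, a membrane repair protein (−0.96 ± 0.06), and the interferon gamma receptor subunit IFNGR1 (−0.74 ± 0.06) fell in H3255 and rose in H1975. With vehicle as the control the difference of IFNGR1 was −0.63. For the other genes of this paragraph the naming rule required the same sign with vehicle.

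CDKN1A, the CDK inhibitor p21, belonged to this class. It had 23.9, 26.2 and 28.1 FPKM with MinE07 against 38.2, 39.0 and 40.1 with C36 in H3255, and 20, 18.7 and 19.4 against 17.4, 17.0 and 16.6 in H1975. It fell in the first line and rose in the second (−0.76 ± 0.07; adjusted p = 1.50e-05). GDF15, a secreted stress hormone, had 154, 162 and 170 FPKM against 290, 308 and 295 in H3255, and 16.8, 16.9 and 15.7 against 16.7, 15.8 and 15.8 in H1975 (−0.91 ± 0.06). Both are p53 targets, of which 4 of 18 tested were called lower and 2 higher, against 7.63% and 5.94% of all genes. The median difference of the list was −0.04. MDM2, a defining target, was not called (−0.05).

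In the BCL2 family the genes with the largest positive differences have opposite roles. BCL2L1, which encodes the survival protein BCL-XL, had 110, 114 and 112 FPKM with MinE07 against 84.1, 87.6 and 86.2 with C36 in H3255, and 40, 40.5 and 37.9 against 47.7, 47.4 and 46.2 in H1975. It rose in one line and fell in the other (0.63 ± 0.04; adjusted p = 2.52e-06). BMF, a pro-death BH3-only protein, had 37.5, 41.3 and 38.7 FPKM against 19.9, 21.6 and 19.8 in H3255, and 4.29, 3.90 and 4.29 against 2.93, 2.65 and 3.05 in H1975. It rose in both and more in H3255 (0.46 ± 0.08; adjusted p = 0.00202). BCL2L11, which encodes BIM, rose in both lines by 0.23 and 0.18. Of 12 genes tested 2 were called higher and 2 lower, against 5.94% and 7.63% of all genes. The lower ones were PMAIP1, which encodes NOXA (−0.39), and MCL1 (−0.18). With vehicle as the control neither of these was called (PMAIP1 −0.07, adjusted p = 0.709; MCL1 −0.12, adjusted p = 0.12), and BCL2L1, BMF and BCL2L11 (0.35) were called higher.

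Most cell cycle genes fell in both lines. Of 35 DNA replication and G1-S genes tested, 25 fell in H3255 and 31 in H1975, against 22.6% and 13.1% of all genes. The difference was called for 9 with the larger fall in H1975, against 5.94% of all genes called in that direction, and for 1, RRM2 (−0.22), with the larger fall in H3255. CHAF1A, a histone chaperone subunit, had 16.6, 16.4 and 16.6 FPKM against 17.1, 17.3 and 16.3 in H3255, and 14.1, 13.9 and 13.3 against 17.1, 17.7 and 17.6 in H1975 (0.30 ± 0.05). UHRF1 (0.26) and the transcription factor E2F1 (0.25) followed. Of 35 mitosis and G2-M genes, 35 fell in H3255 and 31 in H1975, and 4 were called with the larger fall in H3255 (TOP2A −0.25, ANLN −0.23, UBE2C −0.23, CKAP2L −0.17). At 11.4% this is near the 13.6% of all genes. The call of UBE2C was lost when any of 5 single libraries was left out, and those of ANLN (−0.15, adjusted p = 0.141) and CKAP2L (−0.18, adjusted p = 0.0504) with vehicle. CCND1, cyclin D1, had 183, 187 and 189 FPKM with MinE07 against 216, 216 and 212 with C36 in H3255, and 46.3, 46.5 and 45.3 against 67.4, 68.8 and 66.8 in H1975. It fell in both lines and more in H1975 (0.35 ± 0.04; adjusted p = 4.87e-05; 0.23 with vehicle). The median difference was 0.11 for the replication genes and −0.11 for the mitosis genes, and whether these lists differ from each other was not tested.

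Most genes of ribosome biogenesis fell in both lines. Of 23 MYC and ribosome biogenesis genes 21 fell in H3255 and 18 in H1975, where 22.6% and 13.1% of all genes did. Their median changes were −0.18 and −0.19. The difference was called for 1 of them (NOP16, 0.22, and 0.19 with vehicle, adjusted p = 0.0546), against 13.6% of all genes. By the naming rule for responses of like size, PIK3IP1, an inhibitor of PI3K, rose by 0.91 and 0.89. It had 3.95, 4.02 and 3.81 FPKM against 1.90, 1.88 and 1.81 in H3255, and 4.97, 4.6 and 4.86 against 2.26, 2.32 and 2.49 in H1975, with an interval of the difference from −0.13 to 0.15. C14orf28, PLD1 and GGT1 also rose in both lines, and the hyaluronan synthase HAS3 and MYEOV fell in both. Of 11 HLA class I antigen presentation genes tested, of 18 listed, 8 rose in H3255 and 4 in H1975, where 17.3% and 9.54% of all genes rose. No difference between the lines was called for them. Their median difference was 0.06, and that of HLA-B, which has 5 further copies in the files, was −0.02.

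For genes that FOXO factors activate, the balance of the differences depended on the control. Of 15 tested, of 20 listed, 6 rose and 3 fell in H3255, where 17.3% and 22.6% of all genes did. In H1975 10 rose, where 9.54% of all genes did. With C36 6 differences were called, all more positive in H1975 (median difference −0.11), a direction called for 7.63% of all genes. With vehicle 2 were called higher for H3255, BCL6 (0.59) and PINK1 (0.26), and 4 lower, against 8.2% and 6.36% of all genes. The median was then −0.01. The change from vehicle to C36 was itself called more positive in H3255 for 2 genes of the list, SELENOP (0.41) and BCL6 (0.39). IRS1 (−0.39 with C36, −0.49 with vehicle) and IRS2 (−0.45 and −0.34), adaptors of the insulin receptor, and the cyclin CCNG2 (−0.38 and −0.37) were called lower with both controls. SELENOP, a selenium transport protein, had 9.82, 10.7 and 10.6 FPKM with MinE07 against 5.73, 6.13 and 5.86 with C36 in H3255, and 2.20, 1.93 and 2.14 against 0.601, 0.611 and 0.628 in H1975. It rose in both lines and more in H1975 (−0.46 ± 0.07; adjusted p = 0.000967). With vehicle as the control the rises were 0.68 and 0.73 with a difference of −0.04 (adjusted p = 0.76), and C36 stood below vehicle in H1975 (−0.49, adjusted p = 0.000659). TNFSF10, the death ligand TRAIL, had 1.76, 1.61 and 2.26 FPKM against 0.970, 0.696 and 0.890 in H1975 and 14.1, 13.3 and 12.9 against 13.7, 13.2 and 13.9 in H3255, where the groups overlapped (−0.83 ± 0.13). With vehicle its difference was −0.36 with an adjusted p of 0.0898. With C36 both SELENOP and TNFSF10 lay below 1 FPKM in H1975, where they passed the minimum through MinE07.

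Antioxidant genes controlled by NRF2 were more negative in H3255. Of 16 tested, of 20 listed, 8 were called lower and 1, GCLC (0.26), higher, against 7.63% and 5.94% of all genes. The median difference was −0.24. With vehicle as the control 6 of the list were called lower and 1 higher, with a median of −0.14. Over all genes 6.36% were called lower and 8.2% higher with vehicle. The change from vehicle to C36 was more positive in H3255 for 14 of the 16, with a median difference of 0.11. It was so for 7071 of all 12182 genes, with a median of 0.017. In H3255 9 fell and 1 rose, where 22.6% and 17.3% of all genes did. In H1975 6 rose and 1 fell, where 9.54% and 13.1% of all genes did. AKR1C3 rose in H1975 (13.9, 11.3 and 14.1 FPKM against 8.97, 8.01 and 8.85) and not by the test in H3255 (−0.58 ± 0.11). TXNRD1, thioredoxin reductase, fell in H3255 and rose in H1975 (−0.53 ± 0.04); with vehicle the difference was −0.21. TKT, transketolase of the pentose phosphate pathway, was also called (−0.38). Of 26 sterol and fatty acid synthesis genes 7 were called lower and 2 higher, against 7.63% and 5.94% of all genes. The desaturases FADS2 (−0.35) and SCD (−0.19) were among the lower ones and HMGCS1 (0.16) among the higher.

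For several interferon-stimulated genes the difference between the lines depended on the control. ISG15, a ubiquitin-like protein, had 7.76, 7.25 and 8.13 FPKM with MinE07, 22.8, 16.4 and 15.6 with C36, and 7.79, 7.57 and 6.54 with vehicle in H3255. H1975 cells had 91.0, 93.1 and 92.0 FPKM with MinE07, 93.4, 84.6 and 86.4 with C36, and 95.6, 76.1 and 81.5 with vehicle. In H3255 the C36 libraries stood above both other groups, and in H1975 the 3 groups overlapped. The difference between the lines was −1.23 ± 0.16 with C36 as the control (adjusted p = 0.00093), −0.05 ± 0.17 with vehicle (adjusted p = 0.876), and 1.18 for C36 against vehicle (adjusted p = 0.0139). These 3 values share libraries pairwise.

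IFIT3, a cytoplasmic RNA-binding effector, had 0.647, 0.661 and 0.590 FPKM with MinE07, 1.55, 1.36 and 1.44 with C36, and 0.455, 0.428 and 0.443 with vehicle in H3255. In H1975 it had 21.8, 20.6 and 20.3 with MinE07, 19.4, 19.1 and 19.5 with C36, and 22.2, 22.7 and 23.7 with vehicle. The sign of its difference turned with the control: −0.89 ± 0.06 with C36 and 0.39 ± 0.06 with vehicle, both called. In H3255 its MinE07 and vehicle libraries were below 1 FPKM, near the 0.5 added before the log. It passed the minimum there only through C36. OAS1, ATF3 (an immediate early and stress gene) and IFI6 were called with C36 (−1.04, −0.91 and −0.71) and not with vehicle (−0.31, −0.23 and 0.29). In H3255 the MinE07 means of OAS1 (0.81 FPKM) and ATF3 (0.70 FPKM) were below 1, and C36 carried both past the minimum. The call of IFI6 was lost when any of 6 single libraries was left out. IRF9, the DNA-binding subunit of the ISGF3 complex, had 1.97, 2.38 and 2.58 FPKM with MinE07, 6.76, 5.21 and 4.95 with C36 and 3.09, 3.36 and 3.22 with vehicle in H3255. IRF9 had a negative difference with both controls (−1.35 and −0.67), a like sign that the naming rule required. A further copy of IRF9 is listed separately, and adding it gave −1.50 with C36. IFITM1 (−0.75 with C36, −0.45 with vehicle) and IFITM3 (−0.36 and −0.32) were called with both.

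Of the 23 interferon response genes tested, of 42 listed, 10 were called lower and 1, STAT2 (0.30), higher with C36. Over all genes 7.63% were called lower and 5.94% higher with C36, and 6.36% and 8.2% with vehicle. With vehicle STAT2 was not called (0.21, adjusted p = 0.197), and 4 of the list were called higher and 3 lower. The median difference was −0.17 with C36, 0.09 with vehicle and 0.19 for C36 against vehicle, beside 0.00, 0.02 and 0.02 for all genes. The 28 genes called for C36 against vehicle (0.23%; 0.197% higher and 0.0328% lower) held 4 of this list, IFIT3, ISG15, IFI6 and DTX3L, and 2 of 6 RNA sensor genes, IFIH1 and RIGI. Leaving out 1 library took the 28 to between 5 and 36. Another 17 genes of the list reached 1 FPKM in H1975 alone and were not tested, so the list shows those members that H3255 also expresses.

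**Figure D4:**
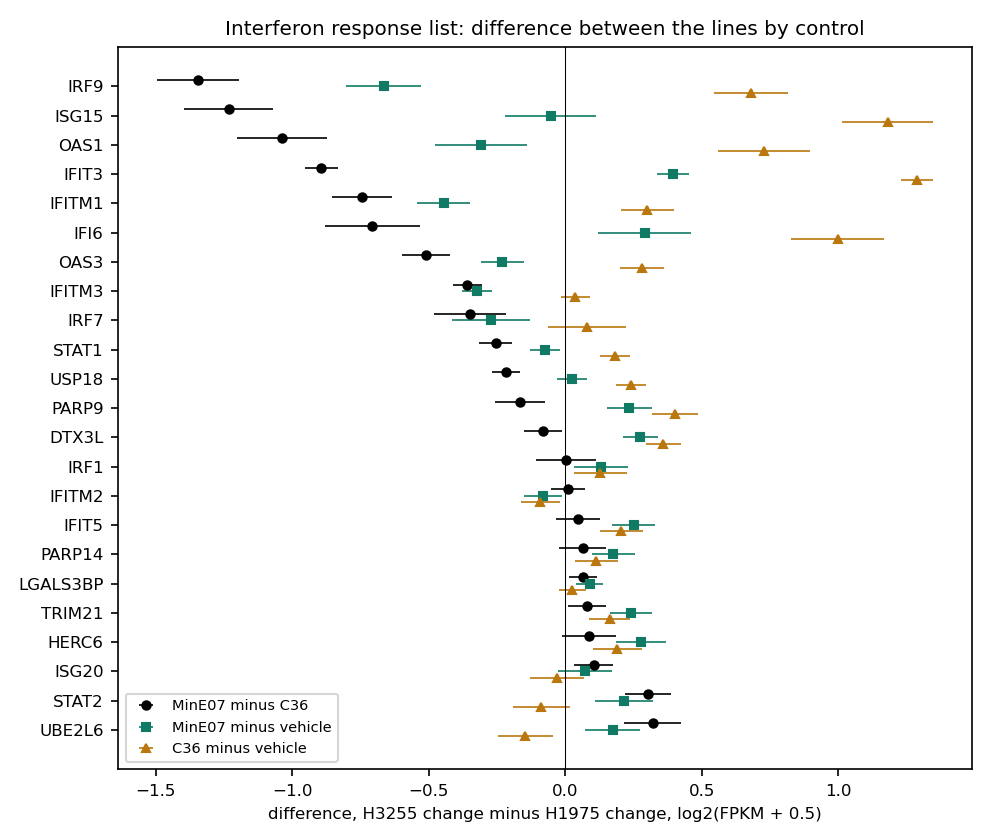
Difference between the lines (H3255 change minus H1975 change, log2(FPKM + 0.5), bars are standard errors) for each interferon response gene tested, for MinE07 against C36 (black circles), MinE07 against vehicle (green squares) and C36 against vehicle (orange triangles). For ISG15 the black circle lies at −1.23, the green square at −0.05 and the orange triangle at 1.18, and for IFIT3 circle and square lie on opposite sides of 0.

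A core of the interferon-stimulated response element (GAAA, any 2 bases, GAAA, on either strand) lay in the promoters of 13 of 19 genes of the list with a promoter at hand (68.4%), against 4.38% of all genes. It lay in 6 of the 8 called lower with C36 and in 7 of the 10 not called. The promoters of ISG15, IFIT3 and IFI6 are shown because their difference depended on the control; capitals mark the core, which is read on the opposite strand in IFIT3 and overlaps itself in ISG15.
ISG15 (chr1:1013372-1013411, plus strand): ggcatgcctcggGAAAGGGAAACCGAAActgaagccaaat
IFIT3 (chr10:89327829-89327896, plus strand): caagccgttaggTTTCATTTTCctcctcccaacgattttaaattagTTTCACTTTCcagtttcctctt
IFI6 (chr1:27672264-27672360, minus strand): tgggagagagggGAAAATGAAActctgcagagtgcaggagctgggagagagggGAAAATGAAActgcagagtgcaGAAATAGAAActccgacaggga

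Of 7 keratin and squamous genes tested, of 26 listed, 5 were called lower, against 7.63% of all genes, with a median difference of −0.22. KRT80 (−0.41) and KRT18 (−0.34) led them, and the call of KRT19 (−0.16) was lost when any of 8 single libraries was left out. Of the 6 lung alveolar lineage genes tested, of 23 listed, 3 were called higher and 1 lower, against 5.94% and 7.63% of all genes. The higher ones were ABCA3, a lipid transporter of type II cells (0.69), LPCAT1 (0.39) and ETV5. The lower one was FOXA2 (−0.31, a call lost without either of 2 single libraries and with vehicle). The median was 0.11, and 13 of the list were expressed in H3255 alone. NKX2-1, the lineage transcription factor, rose in both lines (0.35 and 0.37). Of 15 CCN and YAP-responsive genes 3 were called higher and 1 lower, with NT5E (0.37) falling more in H1975. The shares of all tested genes with a call in these directions were 5.94% (higher) and 7.63% (lower). MET, a receptor that can stand in for EGFR, fell in H3255 (−0.29; difference −0.23, adjusted p = 0.00391; −0.14 with vehicle). The calls of MST1R (−0.32) and AXL (0.23) were lost when any of 8 or of 9 single libraries was left out, and with vehicle (−0.30, adjusted p = 0.0936, and 0.01). ICAM1 differed by −0.43, and by −0.75 with vehicle.

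Some genes that changed in one line were below the minimum in the other. CXCL8, the neutrophil chemokine, had 5.07, 6.17 and 5.82 FPKM with MinE07 against 21.7, 24.9 and 24.3 with C36 in H3255 and lay between 0.408 and 0.713 in H1975. KRT4, a keratin of stratified epithelia, had 24.0, 25.4 and 25.7 FPKM against 7.43, 8.08 and 7.24 in H3255 and at most 0.0219 in H1975. CCN5, a matrix-associated signalling protein, had 24.6, 24.7 and 23.5 FPKM against 10.3, 10.2 and 9.79 in H1975 and at most 0.0967 in H3255. No difference between the lines was computed for these 3 genes.

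In the other lines of the series, fitted on all 36 libraries, MinE07 changed 14 of the 12182 genes against C36 in H820 (EGFR Ex19del/T790M; 0.115%, with 0.0328% higher and 0.0821% lower) and 171 in A549 (wild-type EGFR; 1.4%, with 0.862% higher and 0.542% lower). Of the 111 genes named by rule or by choice and tested, 5 were called in H820 and 7 in A549. EGR1 fell in both, by 0.78 on the log2 scale in H820 (adjusted p = 6.02e-08) and by 0.56 in A549 (adjusted p = 5.34e-05). The A549 means were 4.27 ± 0.377 FPKM under MinE07, 6.51 ± 0.648 under C36 and 2.93 ± 0.238 under vehicle (SD, n = 3), so that its level with MinE07 lay between those of the controls. In H820 CCND1 (−0.33) and DUSP5 (−0.32) also fell, and ALDH3B1 (0.26) and PIK3IP1 (0.27) rose. In A549 CHAC1 (−0.45), PHGDH (−0.20), SPRY4 (−0.18) and HLA-B (−0.64) also fell, and ANLN (0.22) and TXNRD1 (0.11) rose. PLAU changed by 0.10 in H820 and −0.12 in A549, and AREG by −0.19 and −0.08, none of them called. The median change of the glycolysis list was −0.005 in H820 and −0.004 in A549, and that of the ERK feedback list −0.07 and −0.08. Whether these differ from H1975 was not tested.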

How the data were processed

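RNA-seq libraries (100-base paired-end reads) were aligned with HISAT2 and quantified with Cuffdiff on hg38 (GRCh38.p12), per the submitters' processing notes; tool versions and annotation release: not given in the sources used here. The deposited values are FPKM per gene, as the authors made them, so read depth is unknown. Unnamed and repeated entries (at most 0.0028% and 0.0025% of FPKM) were left out. Values were analysed as log2(FPKM + 0.5) for genes with a mean of at least 1 FPKM in each line, with limma 3.58.1 (R 4.3.3; group means, trend, robust), tested on simulated data. The main fit used 12 libraries, and comparisons with vehicle used 18. The minimum was taken over the MinE07 and C36 libraries of a line, so a gene could pass through the group where it was high. Named genes were, by rule, the largest, opposite and like-sized differences, up to 3 called members per list, and a preset few; other list members, and IFIT3, IFI6, IFITM1, PSAT1, PHGDH, SLC1A5, PGK1, PKM, VEGFA and PDK1, were named after their values were seen, and the ATF4 and HIF motifs were chosen then too. The members, lists and rules were chosen with earlier results of these data known. Each group came from 3 biologically independent experiments, per the series record. Alternatives varied the pseudocount, filter, scaling, moderation, libraries, replicate block and further copies of a gene.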

Additional observations from a re-analysis of the deposited data

Results flagged for a closer look

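The tests of the difference between the lines called 1653 genes for MinE07 against C36, 1774 for MinE07 against vehicle and 28 for C36 against vehicle. Among genes that moved in opposite directions, the differences were 1.42 for SPNS2, 1.23 for RGCC, 0.83 for TEAD4, −1.27 for AQP3, −0.96 for DYSF and −0.74 for IFNGR1, in log2(FPKM + 0.5).

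The change from vehicle to C36, both controls, itself differed between the lines for 9 named genes. It was more positive in H3255 for the interferon-stimulated genes IFIT3 (1.29), ISG15 (1.18) and IFI6 (1.0), the RNA sensors IFIH1 (0.46) and RIGI (0.38), and ATF3 (0.68), SELENOP (0.41) and TXNRD1 (0.31). It was more negative there for ICAM1 (−0.32).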

How the results depend on the processing

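With 5 FPKM as the minimum, fewer genes were tested, and 3150 were called in H3255, 1159 for the difference with vehicle and 8 for C36 against vehicle. Leaving out 1 library gave 1286 to 1597 calls for the main difference, 4082 to 4857 in H3255, 1886 to 2933 in H1975, 1432 to 1889 with vehicle, and 5 (without H1975 C36 replicate 3) to 36 for C36 against vehicle. In H1975 higher calls were 42.1% of all calls, 54.2% with no filter. For the main difference they were 43.8% of calls, and 39.4% to 50.7% with 1 library left out.

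The replicate numbers showed no clear pairing of the libraries: same-numbered MinE07 and C36 libraries correlated at −0.02 to 0.164 in H3255 and −0.115 to −0.042 in H1975. These are correlations of deviations from means of 3 libraries, so they cannot exclude a modest effect shared by the libraries of an experiment. Not every library correlated best with its own number. The replicate block gave 1278 calls for the main difference, 4385 in H3255, 2306 in H1975, 1592 with vehicle and 5 for C36 against vehicle.

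Of 100 named genes called, 87 kept the call under every alternative in which they were tested. Genes below the 5 FPKM minimum were not tested under that alternative. No alternative took vehicle in place of C36 as the control. Among the genes that kept the call, those not called with vehicle included EGFR, ISG15, ATF3, OAS1, IFIH1, RIGI, TICAM1, SELENOP, TNFSF10, PMAIP1 and ANLN. Signs turned for genes with a difference near 0: with pseudocount 1 PIK3IP1 was −0.0081; with pseudocount 0.1 C14orf28 was −0.0125 and PLD1 −0.0194; with further copies added HLA-B was 0.0203. Leaving out 1 library gave −0.0215 to 0.0361 for PIK3IP1, −0.0157 to 0.0805 for HAS3, −0.035 to 0.0611 for MYEOV, −0.0643 to 0.0865 for C14orf28, −0.0137 to 0.0451 for PLD1, −0.0069 to 0.0874 for GGT1 and −0.0768 to 0.0365 for HLA-B. FPKM carry no read counts, so the precision of low genes rests on the spread of replicate libraries, 3 per group, pooled over groups and moderated across genes.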
